A study of Mus musculus with 17 samples.

Results

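Skin innate lymphoid cells (ILCs) from C57BL/6 mice were compared by how much Gata3 transcript each cell carried. The members were cells of 1 skin single-cell library with at least 2000 total counts, under 10% of counts in mitochondrial genes and fewer than 2 counts over Cd3e and Cd3d, the CD3 chains of the T cell receptor. Of 4444 cells, 2563 passed these limits. Of these, 298 cells (11.6%) had 0 Gata3 counts and are called Gata3-undetected, 1055 cells (41.2%) had 6 or more and are called Gata3-high, and 1210 cells (47.2%) had 1 to 5. Gata3, Cd3e, Cd3d, depth and mitochondrial share chose the cells and are no finding: the members were chosen by measured values. Every other gene was measured in the same cells, so values within this library are a description with no test.

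The study profiled skin ILCs by bulk and single-cell RNA-seq, and its title places a population of intermediate GATA3 level in hair follicle recycling. Bulk cells were sorted as live, lineage-negative, γδTCR-negative and CD90-positive cells. Single-cell libraries came from ear and dorsal skin: 1 library labelled skin, and 1 each of dorsal skin at day 0 and day 10 after depilation. In the groups fm_pos (n = 2) and fm_neg (n = 2), cells carried or lacked a fate-map (fm) reporter that marks cells by an earlier expression history. The groups fm_pos_Gata3flox (n = 3) and fm_neg_Gata3flox (n = 3) held the same sorts from mice of the floxed Gata3 genotype, which the protocol names fmΔGata3. Both groups carried that genotype label, and the labels do not say how fully Gata3 was deleted in either. WT (n = 2) and Gata3KO (n = 2, Gata3fl/flCreERT2) mice all received 5 mg tamoxifen in each of 3 injections, so the controls of this pair also carried the drug but not the floxed allele. The labels do not say that libraries of a group came from separate mice, and every p-value below reflects library-to-library spread, which may be technical.

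GATA3 is a zinc-finger transcription factor that binds GATA motifs in DNA. All helper-like ILCs need it during development, and group 2 ILCs (ILC2s) keep it at a high level. There it sustains the type 2 programme: the interleukin 33 receptor, and cytokines such as interleukins 5 and 13. ILC3s carry less of it and make interleukins 17 and 22, and ILC1s make interferon gamma. Skin holds resident ILC2s and other CD90-positive lymphocytes, γδ T cells among them.

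The promoters of 5 type 2 or neuropeptide genes are shown because these genes had higher levels in the Gata3-high cells below, so a reader can see where the letters of a GATA motif fall. Each window holds the 250 bases before a transcription start site, from RefSeq on GRCm38.p6, 5′ to 3′ on the gene's strand. Capitals mark AGATAA or its reverse complement TTATCT, searched on both strands. Other spellings of a GATA motif, such as AGATAG, were not searched and stay in lower case. The windows are Il5 at chr11:53720544-53720793 (plus strand), Il1rl1 at chr1:40429320-40429569 and chr1:40439379-40439628 (plus strand, start sites upstream and downstream), Il13 at chr11:53634703-53634952 (minus strand), Csf2 at chr11:54249900-54250149 (minus strand) and Calca at chr7:114636358-114636607 (minus strand).
Il5: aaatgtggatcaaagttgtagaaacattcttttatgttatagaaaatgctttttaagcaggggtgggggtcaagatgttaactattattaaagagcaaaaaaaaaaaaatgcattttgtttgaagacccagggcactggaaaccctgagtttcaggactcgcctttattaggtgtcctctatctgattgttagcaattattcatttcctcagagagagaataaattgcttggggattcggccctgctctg
Il1rl1, upstream start: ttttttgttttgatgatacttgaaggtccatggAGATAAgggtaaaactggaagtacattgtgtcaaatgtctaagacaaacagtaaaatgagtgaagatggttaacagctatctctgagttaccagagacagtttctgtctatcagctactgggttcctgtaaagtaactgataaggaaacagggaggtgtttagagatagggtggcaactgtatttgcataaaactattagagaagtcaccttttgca
Il1rl1, downstream start: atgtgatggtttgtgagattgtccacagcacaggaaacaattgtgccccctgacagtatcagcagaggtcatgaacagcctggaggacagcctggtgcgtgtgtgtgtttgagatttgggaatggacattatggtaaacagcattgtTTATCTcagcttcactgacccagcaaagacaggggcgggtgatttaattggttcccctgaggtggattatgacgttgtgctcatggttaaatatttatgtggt
Il13: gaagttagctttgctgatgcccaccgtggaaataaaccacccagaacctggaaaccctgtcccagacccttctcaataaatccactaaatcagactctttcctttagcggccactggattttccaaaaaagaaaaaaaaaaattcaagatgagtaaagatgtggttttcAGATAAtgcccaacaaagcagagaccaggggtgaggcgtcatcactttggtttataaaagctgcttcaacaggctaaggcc
Csf2: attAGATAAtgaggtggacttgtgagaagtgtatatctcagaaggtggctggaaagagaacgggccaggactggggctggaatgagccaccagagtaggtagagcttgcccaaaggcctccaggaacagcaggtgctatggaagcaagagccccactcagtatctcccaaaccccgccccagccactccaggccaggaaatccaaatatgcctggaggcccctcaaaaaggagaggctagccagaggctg
Calca: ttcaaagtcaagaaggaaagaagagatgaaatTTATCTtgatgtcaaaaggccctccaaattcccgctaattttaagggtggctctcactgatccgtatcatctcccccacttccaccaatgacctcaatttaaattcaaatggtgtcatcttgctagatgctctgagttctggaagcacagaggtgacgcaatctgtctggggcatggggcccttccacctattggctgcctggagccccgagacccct
The first base of the motif lay at -217 and -103 from the start site in the upstream and downstream Il1rl1 windows, at -81 in Il13, at -247 in Csf2 and at -218 in Calca. The Il5 window held neither of these spellings, and other spellings were not searched. Raph1, also higher in Gata3-high cells, was searched too, and its window, not shown, held neither. Over all genes with such windows, 3090 of 27025 (11.4%) held the motif. Among the genes at least 2-fold higher in Gata3-high cells it was in 11 of 81 matched genes (13.6%), and among those higher in Gata3-undetected cells in 7 of 56 (12.5%), both shares within a few points of the share over all genes. A match is a string of letters and not a measured binding site.

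Gata3-undetected cells were somewhat shallower than Gata3-high cells. Their median total was 2553 counts (range 2005 to 7413) against 3135 (range 2000 to 8918), their median number of detected genes was 1244 against 1427, and their median mitochondrial share was 4.34% against 3.85%. Exactly 1 CD3 count was present in 12.8% of the Gata3-undetected and 3.13% of the Gata3-high cells. The share of cells with 0 Gata3 counts was 16.9% among cells of 2000 to just under 2500 counts (exact 95% binomial interval 14.4% to 19.6%) and 6.95% among cells of 4000 or more (4.46% to 10.2%). A count of 0 is therefore not absence of the transcript. Thinned to 2000 counts, 0.290% of the Gata3-high cells would have shown 0 Gata3 counts, against 9.59% of the cells with 1 to 5. The lower limit thus moves with depth for cells of the middle range far more than for Gata3-high cells.

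**Figure D1:**
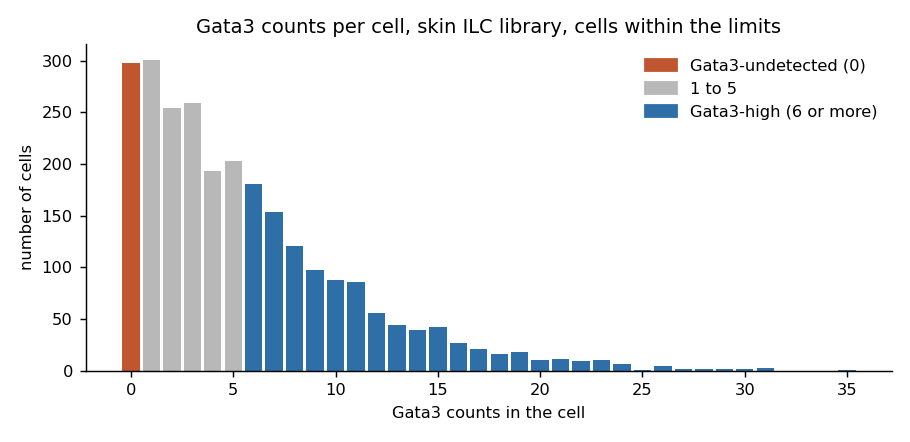
Number of skin cells (vertical axis) at each Gata3 count (horizontal axis, whole counts per cell), with the Gata3-undetected and Gata3-high cells coloured. Cell numbers run without a gap through both limits: 298, 301 and 254 cells had 0, 1 and 2 counts, and 203, 181 and 154 had 5, 6 and 7, up to a cell with 35.

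The distribution had no gap at either limit. There were 301 cells with 1 Gata3 count beside the 298 with none, and 203 cells with 5 counts beside the 181 with 6. Gata3-high cells held a median of 9 Gata3 counts, and their summed Gata3 level was 3208 CPM, where CPM scales counts to a common library total. The groups are ranges of a count without a gap, which cannot show whether they hold separate cell types. Levels below are CPM of counts summed over the cells of a group (831255 counts in the Gata3-undetected and 3494112 in the Gata3-high cells), and each ratio has an exact 95% interval that covers counting error only.

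Il1rl1, Il5 and Klrg1 of the ILC2 programme were among the genes with higher levels in Gata3-high cells, and Scart2, Cd3g and Ctsw among those with higher levels in Gata3-undetected cells. Of 5287 genes with at least 100 summed counts, 111 (2.10%) were at least 2-fold higher in Gata3-high and 86 (1.63%) at least 2-fold higher in Gata3-undetected cells, with a median log2 ratio of -0.01 over all genes. Of the 22 measured genes of the ILC2 and type 2 list, 10 were past 2-fold higher in Gata3-high cells and 0 in Gata3-undetected cells, with a median log2 ratio of 0.88. Because the rule split the same cells on Gata3, these shares are given beside each other and nothing is read from them.

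Il1rl1 encodes ST2, the receptor for interleukin 33. Its level was 405 CPM in Gata3-high and 24.1 CPM in Gata3-undetected cells, a ratio of 16.8 (10.9 to 27.6). It was detected in 21.5% of the Gata3-high and 2.01% of the Gata3-undetected cells. As a rough guide to free RNA, 33 cells of the library had at least 10 counts of myeloid and B cell genes. Their median total was 3409 counts, and 14 were Gata3-undetected and 7 Gata3-high. These 33 background cells showed Il1rl1 in 6.06%, but also Ets1, a gene of the early lymphoid list, in 87.9%. They share members with both groups, so their shares are given for comparison without a verdict. Thinned to 2000 counts, Il1rl1 was detected in 19.0% of the Gata3-high and 2.01% of the Gata3-undetected cells, against 3.03% of the 33.

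Il5 encodes the cytokine that sustains eosinophils. It had 2332 CPM in Gata3-high and 321 CPM in Gata3-undetected cells, a ratio of 7.26 (6.43 to 8.23). Il5 was present in 662 of 1055 Gata3-high cells (62.7%, exact 95% interval 59.8% to 65.7%) and in 69 of 298 Gata3-undetected cells (23.2%, 18.5% to 28.4%), against 12.1% of the 33 background cells. At 2000 counts per cell the shares were 56.9%, 18.8% and 9.09%. Cells with 5 or more Il5 counts made up 34.4% of the Gata3-high and 4.70% of the Gata3-undetected cells. The exact 95% interval of the background share of 12.1% reaches up to 28.2% and holds the Gata3-undetected share. The 33 cells also share members with both groups, so no verdict is drawn from them. Of the Gata3-undetected cells, 1 held 66 Il5 counts.

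The other cytokines had lower ratios over all members. Il13, the cytokine of mucus and tissue responses, had 392 and 195 CPM, a ratio of 2.01 (1.71 to 2.38). Csf2, which encodes the growth factor GM-CSF, had 165 and 61.4 CPM, a ratio of 2.70 (2.02 to 3.66). This order depended on depth, since in cells of 3000 to 5000 counts the log2 ratio of Csf2 was 3.26 and that of Il5 2.40. Il4 was rare, with 53 counts in Gata3-high and 3 in Gata3-undetected cells, a ratio of 4.20 (1.36 to 21.0). Areg, the epidermal growth factor family ligand amphiregulin, had 530 and 328 CPM, a ratio of 1.61 (1.42 to 1.84), and so stayed under 2-fold. At least 1 count of Il5, Il13 or Csf2 was found in 75.5% of the Gata3-high and 40.9% of the Gata3-undetected cells. Of the 33 background cells, 42.4% held such a count (exact 95% interval 25.5% to 60.8%). That interval is wide and holds the Gata3-undetected share, so no verdict is drawn from it.

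Surface receptors of the ILC2 list were also higher. Klrg1, an inhibitory receptor of mature ILC2s, had 144 counts in Gata3-high cells and 1 count in Gata3-undetected cells, a ratio of 34.3 (6.05 to 1362). Cd200r1, the receptor for CD200, had 94.7 and 20.5 CPM, a ratio of 4.63 (2.85 to 8.05). Il2ra, the alpha chain of the interleukin 2 receptor, had 1216 and 689 CPM (1.76-fold), under 2-fold. Ccr8, a skin-homing chemokine receptor, had 339 and 235 CPM. Calca encodes the neuropeptide CGRP and had 302 and 106 CPM, a ratio of 2.85 (2.29 to 3.59). Of the metabolic and signalling genes on the list, Dgat2, the last enzyme of triglyceride synthesis, had 279 and 111 CPM, and Ptpn13, a protein tyrosine phosphatase, had 277 and 110 CPM.

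Genes outside the ILC2 list that were higher in Gata3-high cells included an actin regulator, a cytokine receptor and a repressor. Raph1, which encodes the actin-binding protein lamellipodin, had 349 and 63.8 CPM, a ratio of 5.48 (4.16 to 7.36), and was found in 47.8% and 12.8% of cells. The Gata3-undetected share of Raph1 lay below the 18.2% of the 33 background cells. Il10ra, the interleukin 10 receptor, had 116 and 25.3 CPM (4.58-fold, 2.95 to 7.48), the 1 of 18 cytokine receptor genes past 2-fold. Bcl6, a transcriptional repressor, had 172 and 77.0 CPM (2.23-fold, 1.72 to 2.93), the 1 of 13 GATA partner and regulator genes past 2-fold. Bcl6 was under 2-fold in cells thinned to 2000 counts (log2 ratio 0.60) and in cells of 3000 to 5000 counts (0.74).

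Several of the highest ratios rested on few counts. Akap12, an anchoring protein of protein kinase A, had 41.5 and 4.81 CPM, and Creb3l2, a membrane-bound transcription factor, had 36.4 and 4.81 CPM. Penk, the precursor of enkephalins, had 30.1 and 3.61 CPM but came from 14 Gata3-high cells, 1 of which held 47 counts. A ratio of that kind describes a few cells and not the group.

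Scart2 was higher in Gata3-undetected cells. It encodes a scavenger receptor of the cysteine-rich family described on γδ T cells. It had 309 CPM in Gata3-undetected and 50.7 CPM in Gata3-high cells, 6.10-fold higher in the former (5.02 to 7.43), and was found in 78 of 298 (26.2%) and 79 of 1055 cells (7.49%), against 15.2% of the 33 background cells. Thinned to 2000 counts, the shares were 24.2% and 5.88%, against 9.09%. Sdc1, a heparan sulfate proteoglycan, had 68.6 and 16.3 CPM, 4.20-fold higher in Gata3-undetected cells (2.86 to 6.18), and was found in 14.1% and 4.27% of cells.

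Some T cell genes had higher levels in Gata3-undetected cells too, after the rule had removed cells with 2 or more CD3 counts. Of 9 measured genes of the T cell list, 4 were at least 2-fold higher in Gata3-undetected cells and 0 in Gata3-high cells, with a median log2 ratio of -0.80. Cd3g, the third CD3 chain, had 91.4 CPM in Gata3-undetected and 27.5 CPM in Gata3-high cells (3.33-fold, 2.43 to 4.54). Trdc, the constant segment of the δ chain, had 51.7 and 19.2 CPM (2.70-fold, 1.80 to 4.01), and Trac, the constant segment of the α chain, had 125 and 47.2 CPM. Lck, the Src-family kinase of T cell receptor signalling, had 126 and 49.2 CPM (2.57-fold, 1.99 to 3.29). A count of Trdc or Cd3g was present in 25.5% of the Gata3-undetected and 10.8% of the Gata3-high cells, and in 30 of the 78 Gata3-undetected cells with Scart2. In the 33 background cells the share was 18.2%, with an exact 95% interval (6.98% to 35.5%) that holds both. These 33 cells share members with both groups, so no verdict is drawn from them. In cells with no Cd3e or Cd3d count, the log2 ratio of Cd3g was -1.18, that of Trac -0.77 and that of Scart2 -2.55, so a smaller difference of the receptor genes and most of that of Scart2 were present there too.

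The ILC1 and natural killer list had 6 measured genes, of which 3 were past 2-fold higher in Gata3-undetected cells, with a median log2 ratio of -0.75. Ctsw, a protease of cytotoxic lymphocytes, had 178 CPM in Gata3-undetected and 64.4 CPM in Gata3-high cells (2.76-fold, 2.23 to 3.42). Nkg7, a cytotoxic granule protein, had 137 and 62.7 CPM (2.19-fold, 1.73 to 2.76). The defining genes of ILC1s were scarce. Tbx21, which encodes T-bet, had 5 counts in Gata3-undetected and 14 in Gata3-high cells. Ifng, interferon gamma, had 5 and 4 counts, a level 5.25-fold higher in Gata3-undetected cells (1.13 to 26.5). Gzmb, granzyme B, had 90.2 and 70.4 CPM, under 2-fold.

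ILC3 genes with at least 100 summed counts were not past 2-fold in either group. None of the 12 measured genes of the ILC3 and type 17 list passed it, and their median log2 ratio was -0.05. Tmem176b and Tmem176a, neighbouring genes of intracellular ion channels found in type 17 lymphocytes, had 164 and 159 CPM in Gata3-undetected against 114 and 99.0 CPM in Gata3-high cells, and the ratio of Tmem176a was 1.60 (1.30 to 1.97). Kit, a growth factor receptor of ILC precursors and ILC3s, was higher in Gata3-high cells (530 against 320 CPM). The cytokines were rare, with 11 counts of Il17a in Gata3-undetected and 29 in Gata3-high cells, 12 and 6 of Il17f, and 29 and 146 of Il22. As a level, Il17f was 8.41-fold higher in Gata3-undetected cells (2.92 to 27.3), from 5 Gata3-undetected and 4 Gata3-high cells. Il17a was 1.59-fold higher there, with an interval (0.719 to 3.29) that spans 1. The Il22 levels differed by a ratio of 1.20 with an interval (0.800 to 1.85) that spans 1.

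Genes of ILC precursors were mostly level. Of 17 measured, 2 were past 2-fold higher in Gata3-undetected cells and 0 in Gata3-high cells, with a median log2 ratio of -0.03. Tcf7, which encodes TCF-1, a factor of early lymphoid and ILC precursors, had 372 CPM in Gata3-undetected and 381 CPM in Gata3-high cells, a ratio of 1.02 (0.904 to 1.16). The exceptions were Cd7, a surface protein of lymphocytes, with 69.8 and 27.2 CPM (2.57-fold, 1.82 to 3.595), and Id3, an inhibitor of E-proteins, with 49.3 and 23.5 CPM. Id3 turned with depth: in cells of 3000 to 5000 counts its log2 ratio was 1.9996, higher in Gata3-high cells. Grap2, an adaptor of antigen receptor signalling outside these lists, had 273 and 131 CPM (2.08-fold, 1.77 to 2.45). None of 20 homing genes passed 2-fold. The homing gene Lgals3, a galectin, had 1012 CPM in Gata3-undetected against 527 CPM in Gata3-high cells, and Itgae, the integrin αE, had 577 against 381 CPM.

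Stress and division genes leaned to the Gata3-undetected cells in a few members. Hspa1a and Hspa1b, near-identical copies of the inducible heat shock protein 70 whose counts cannot be separated with confidence, had 835 and 1127 CPM in Gata3-undetected against 197 and 302 CPM in Gata3-high cells. They were the 2 of 11 heat shock genes past 2-fold, and the list median was -0.14. Of 24 immediate early genes, Dusp2, a nuclear phosphatase, was the 1 past 2-fold (372 against 144 CPM). Of 8 cell cycle genes, Stmn1, a regulator of microtubules, had 96.2 and 45.2 CPM and Top2a, a DNA topoisomerase of dividing cells, 57.7 and 25.2 CPM, and these 2 passed.

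Markers of other lineages moved with the groups. The myeloid list summed to 859 CPM in Gata3-undetected and 169 CPM in Gata3-high cells, and the B cell list to 479 and 86.7 CPM. All 4 measured MHC class II genes, both measured B cell genes and both measured myeloid genes were past 2-fold higher in Gata3-undetected cells. Few cells held 3 or more counts of the myeloid and B cell lists: 21 Gata3-undetected (7.05%) and 21 Gata3-high cells (1.99%). Ctss was left out of this count because lymphocytes also express it. For MHC class II genes, 22 Gata3-undetected (7.38%) and 86 Gata3-high cells (8.15%) held 3 or more counts. Without the cells with myeloid or B cell counts, the median log2 ratio was 0.09 for MHC class II, 0.12 for B cell and -0.40 for myeloid genes. The cells were removed by their myeloid and B cell counts, so a smaller difference of those 2 lists was fixed in advance. For the ILC2 list the median was 0.85, and for the T cell list -0.90. Fibroblast (4.29 and 4.81 CPM in Gata3-high and Gata3-undetected cells), mast cell (10.3 and 13.2 CPM) and endothelial genes (11.2 and 21.7 CPM) were near 0 in both groups. The keratinocyte list summed to 179 CPM in Gata3-high and 322 CPM in Gata3-undetected cells, with 0 of 2 measured genes past 2-fold. The melanocyte and Schwann list went the other way, at 221 and 142 CPM.

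Single cells carried some of the largest differences. In Gata3-undetected cells, 150 of 151 counts of Serpinb2, a serine protease inhibitor of macrophages, lay in 1 cell, as did 153 of 176 counts of Ly6c2, a monocyte surface protein, and 119 of 336 counts of Lyz2, the lysozyme of myeloid cells. Fcer1g, the shared signalling chain of Fc and natural killer receptors, had 224 CPM in Gata3-undetected and 36.6 CPM in Gata3-high cells (6.11-fold, 4.85 to 7.71). Its log2 ratio was -2.03 without the cells that held myeloid or B cell counts, and 63.6% of the 33 background cells held it. Without those cells the log2 ratio was -2.70 for Scart2, -1.75 for Cd3g, 2.78 for Il5 and 3.89 for Il1rl1.

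The middle cells, which the rule left out of both groups, lay between them for most of the genes above. Il5 was at 321 CPM at 0 Gata3 counts, then 517, 999, 1738 and 2936 CPM at 1 to 2, 3 to 5, 6 to 9 and 10 or more (298, 555, 655, 553 and 502 cells). Il1rl1 ran from 24.1 through 109, 151 and 263 to 550 CPM, and Cd200r1 from 20.5 through 50.7, 61.5 and 76.0 to 114 CPM. Each bin was thus higher than the one before it, also between 6 to 9 and 10 or more counts, where both bins are within the Gata3-high group.

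**Figure D2:**
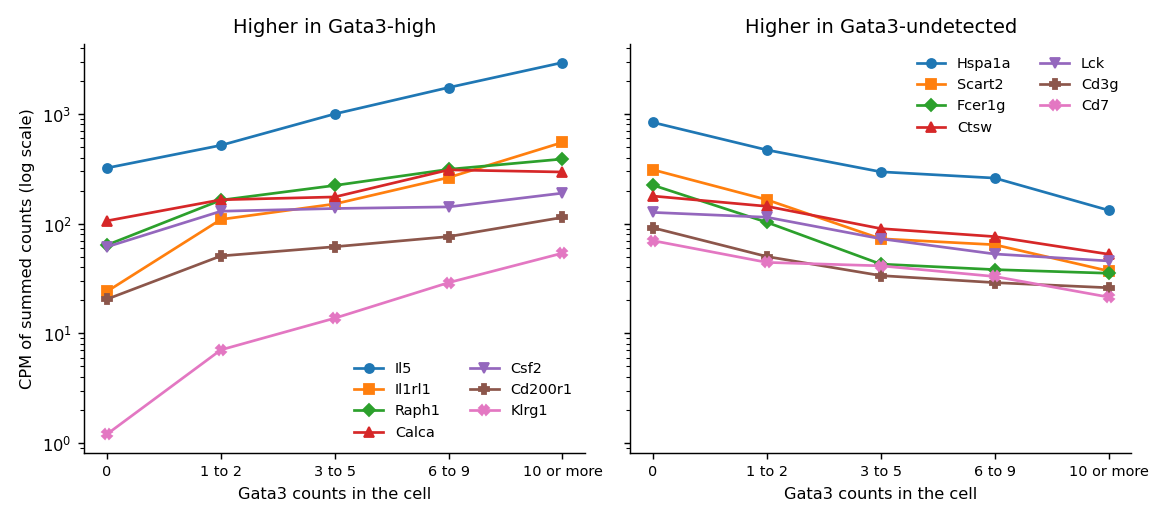
Level in summed CPM (log axis) of 7 genes higher in Gata3-high cells (left) and 7 higher in Gata3-undetected cells (right) against bins of Gata3 counts per cell in the skin library, 1 line per gene. Il5 rises from 321 to 2936 CPM and Scart2 falls from 309 to 37.0 CPM across the 5 bins.

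On the other side, Scart2 was at 309, 165, 72.6, 64.1 and 37.0 CPM over the same bins, and Ctsw at 178, 144, 89.9, 76.0 and 52.5 CPM. Cd3g went from 91.4 through 50.01, 33.5 and 28.9 to 26.0 CPM and Hspa1a from 835 to 132 CPM. The next 3 genes did not follow an ordered course. Tcf7 was at 372, 388, 407, 452 and 308 CPM, Areg at 328, 266, 454, 458 and 603 CPM, and Lyz2 at 404, 66.7, 4.57, 0.568 and 33.5 CPM. Deeper cells hold more Gata3 counts, and the part of depth in these courses was not tested beyond the thinned values above.

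Scart2 and Il5 were found together in some cells of both groups. Among Gata3-undetected cells, 21 of 298 (7.05%) held both, against 43 of 1055 Gata3-high cells (4.08%) and 1 of the 33 background cells (3.03%). Scart2 with Trdc or Cd3g was found in 30 Gata3-undetected (10.1%) and 18 Gata3-high cells (1.71%), and again in 1 of the 33. Gata3-undetected cells with Scart2 thus included cells with and without T cell receptor counts and with and without Il5.

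The dorsal libraries were not used by the rule, so the same split was applied there. Day 0 had 58 Gata3-undetected and 87 Gata3-high cells of 282 that passed, and day 10 had 30 and 42 of 191. These files list 0 mitochondrial genes, so that limit was not applied there. Each is 1 library, so no test was possible. The skin and day 0 files shared 4 cell names, and no other pair shared any.

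Genes that were higher in Gata3-high skin cells were mostly higher in Gata3-high dorsal cells. Of the 81 of 111 genes with enough dorsal day 0 counts, 58 (71.6%) had a ratio above 1 there, against 48.0% of all genes measured, with a median log2 ratio of 0.61. At day 10 the figures were 53 of 59 (89.8%, against 49.0% of all genes) and 1.29. Of the genes higher in Gata3-undetected skin cells, 43 of 63 (68.3%, against 52.0%) leaned the same way at day 0, and 28 of 34 (82.4%, against 51.0%) at day 10, with median log2 ratios of -0.33 and -0.44.

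Il5 differed in both dorsal libraries. It had 4491 CPM in Gata3-high and 483 CPM in Gata3-undetected cells at day 0, a ratio of 9.30 (7.35 to 11.9), and 2643 and 642 CPM at day 10, a ratio of 4.12 (3.04 to 5.68). Il1rl1 had a ratio of 3.97 (1.88 to 9.65) at day 0, and 136 counts against 1 count at day 10. Il13 had ratios of 3.91 (2.66 to 5.94) and 3.15 (2.002 to 5.17). Areg, under 2-fold in skin, had ratios of 3.24 (2.20 to 4.92) at day 0 and 3.00 (2.01 to 4.61) at day 10. All these intervals lie above 1.

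Other genes were less even. Calca, the CGRP gene, had a ratio of 1.97 (1.35 to 2.92) at day 0 and 4.55 (2.87 to 7.57) at day 10. Csf2 had 42 counts against 2 at day 0 and 11 against 4 at day 10, where the interval of the ratio (0.509 to 7.40) spans 1. Klrg1, with a ratio of 34.3 in skin, had 25 counts in Gata3-high and 12 in Gata3-undetected cells at day 0, a ratio of 1.20 whose interval (0.583 to 2.63) also spans 1.

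Some lymphocyte genes had higher levels in Gata3-undetected dorsal cells, and others did not. The counting interval lay above 1 in that direction for 2 of 9 measured T cell genes at day 0 (Cd27 and Trdc) and 2 of 6 at day 10 (Cd27 and Lck), against 5.59% and 5.10% of all genes measured, and for 0 in the other direction. Of the ILC1 and natural killer list it did so for 1 of 12 at day 0 (Ctsw), with 2 the other way (Klrc1 and Xcl1), and for 1 of 10 at day 10 (Klrk1). Cd3g had an interval that spans 1 in both libraries, and Ccr6 was 3.12-fold higher in Gata3-high cells at day 0 (1.18 to 10.4). Cd7 had 653 CPM in Gata3-undetected against 305 CPM in Gata3-high cells at day 0, and 7.14-fold more at day 10 (3.87 to 14.2). Trdc had 24 counts against 5 at day 0 (8.31-fold, 3.11 to 27.9), and Lck was 4.001-fold higher at day 10 (1.47 to 12.6). Tmem176b was 4.27-fold higher in Gata3-undetected cells at day 10 (1.92 to 10.4). Il17a had 17 counts in Gata3-undetected against 3 in Gata3-high cells at day 10 (9.07-fold, 2.62 to 48.3). They lay in 6.67% of the 30 Gata3-undetected and 2.38% of the 42 Gata3-high cells, and the ratio thus rests on a few cells. At day 0 the interval for Il17a spanned 1. Tcf7 had 340 CPM in Gata3-undetected and 180 CPM in Gata3-high cells at day 10 (1.89-fold, 1.03 to 3.50). Hspa1b, which differed in skin, had 183 and 185 CPM at day 0.

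The dorsal files also list tdTomato, a red fluorescent reporter transcript. The labels do not say which reporter line the dorsal mice carried, so what it marks is not known here. At day 0 it was found in 24 of 58 Gata3-undetected cells (41.4%, exact 95% interval 28.6% to 55.1%), 24.1% of the cells with 1 to 5 Gata3 counts, and 14 of 87 Gata3-high cells (16.1%, 9.09% to 25.5%). The median totals of these groups were 2489, 2455 and 2965 counts, and thinned to 2000 counts per cell the shares were 37.9%, 22.6% and 13.8%. The summed tdTomato level was 3.46-fold higher in Gata3-undetected than in Gata3-high cells (2.01 to 6.16). At day 10 it was found in 6 of 30 (20.0%, 7.71% to 38.6%), 7.56% and 2 of 42 cells (4.76%, 0.582% to 16.2%), so the intervals of the shares overlap, with 11 counts against 2 and a ratio of 8.80 (1.92 to 81.7). Thinned, the day 10 shares were 16.7%, 5.04% and 4.76%. No background share can be given, since 4 and 1 dorsal cells of that depth held 10 or more myeloid and B cell counts. Each time point is 1 library without a replicate.

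**Figure D3:**
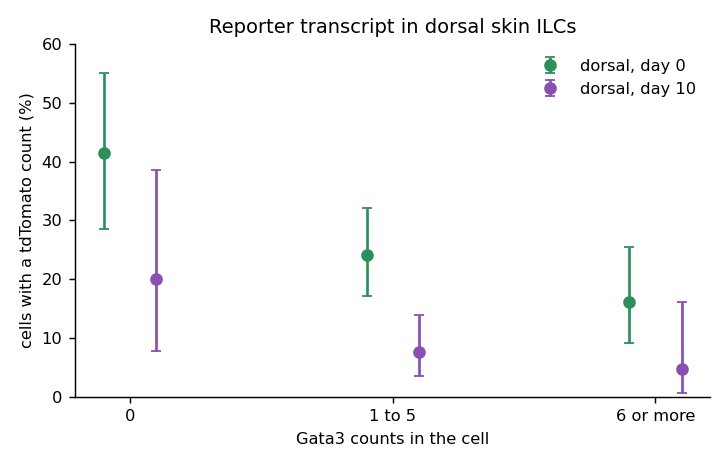
Share of cells with at least 1 tdTomato count (vertical axis, percent) by Gata3 count group in the dorsal day 0 and day 10 libraries, with exact 95% binomial intervals as bars. The share falls from 41.4% to 16.1% at day 0 and from 20.0% to 4.76% at day 10 between Gata3-undetected and Gata3-high cells.

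Bulk libraries gave the same genes a test, in samples the rule did not use. Deposited totals ran from 14450612 to 44098274 counts per library. In bulk, fewer cells of a type and less RNA per cell cannot be told apart. The sort was meant to leave ILCs, yet fibroblast genes summed to 6636 to 9123 CPM in fm_neg and 78.9 to 195 CPM in fm_pos libraries. In the floxed pair they summed to 443 to 1139 CPM in fm_neg_Gata3flox and 160 to 357 CPM in fm_pos_Gata3flox libraries, and in the tamoxifen pair to 3258 to 4569 CPM in Gata3KO and 1180 to 4182 CPM in WT libraries. Keratinocyte genes summed to 2683 to 4926 CPM in fm_neg against 418 to 511 CPM in fm_pos libraries, and to 582 to 769 against 675 to 801 CPM in the floxed pair. Genes of mast cells and basophils summed to 31.8 to 237 CPM in fm_neg and 0.441 to 13.2 CPM in fm_pos libraries, endothelial genes to 33.0 to 96.0 and 7.65 to 12.5 CPM, and B cell genes to 155 to 156 and 30.1 to 50.1 CPM. In the floxed pair, endothelial genes ran the other way, at 11.4 to 14.0 CPM in fm_neg_Gata3flox and 41.2 to 84.8 CPM in fm_pos_Gata3flox libraries, while mast cell and basophil genes (12.5 to 198 and 14.7 to 19.7 CPM) and B cell genes (79.8 to 115 and 73.9 to 99.7 CPM) overlapped. In the tamoxifen pair, Gata3KO libraries were lower in mast cell and basophil genes (7.15 to 8.87 against 12.6 to 36.0 CPM) and keratinocyte genes (373 to 642 against 724 to 836 CPM). The part of these cells in the results below was not tested.

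In tamoxifen-treated mice, no gene was called between Gata3KO and WT (0% of 13272 genes at a Benjamini-Hochberg adjusted p under 0.05 in edgeR's quasi-likelihood test, with 915 genes at an unadjusted p under 0.05). DESeq2 called 230. Gata3 itself, the gene the mice were made to lose, was at 301 and 312 CPM in Gata3KO and 379 and 578 CPM in WT libraries (log2 fold change -0.65 ± 0.26 SE). Counts are per gene and not per deleted exon, so they do not show how complete the deletion was. Of 110 tested genes from the Gata3-high set, 73 (66.4%) had a negative log2 fold change, against 51.5% of all genes, with a median of -0.27. Of 83 from the Gata3-undetected set, 51 (61.4%) were also negative, with a median of -0.16.

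Single genes of the type 2 programme were lower in both Gata3KO libraries without passing edgeR's test. Il1rl1 was at 32.0 and 26.6 CPM in Gata3KO and 77.8 and 75.9 CPM in WT libraries, a log2 fold change of -1.40 ± 0.27 (SE, edgeR adjusted p = 0.585). Klrg1 was at 14.6 and 11.3 against 36.4 and 59.2 CPM, and Il5 at 557 and 805 against 868 and 2227 CPM. The groups did not overlap for these genes, but 36.2% of all genes tested had groups that did not overlap, 19.1% being lower in both Gata3KO libraries. Scart2 was higher, at 285 and 317 CPM in Gata3KO and 145 and 196 CPM in WT libraries (0.81 ± 0.24, adjusted p = 0.585). Ctsw went against its direction in skin cells, at 137 and 108 CPM in Gata3KO and 358 and 357 CPM in WT libraries. DESeq2 called Il1rl1, Klrg1 and Ctsw and did not call Scart2 or Il5.

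In mice of the floxed genotype, reporter-positive cells were lower in genes of the Gata3-high set. Between fm_pos_Gata3flox and fm_neg_Gata3flox, 63 of 17456 genes were called (0.361%): 22 higher (0.126%) and 41 lower (0.235%) in fm_pos_Gata3flox. Of 110 tested genes of the Gata3-high set, 15 were called lower and 0 higher, with a median log2 fold change of -0.89 (0 over all genes) and 91 negative (82.7%, against 49.8% of all genes). Of 83 genes of the Gata3-undetected set, 2 were called higher (Grap2 and Scart2) and 0 lower, with a median of 0.27. Gata3 itself was at 154, 236 and 312 CPM in fm_pos_Gata3flox and 265, 431 and 442 CPM in fm_neg_Gata3flox libraries. The groups overlapped, and the log2 fold change of -0.71 ± 0.32 (SE) was not called (edgeR adjusted p = 0.642).

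The called genes included cytokines, receptors and a chemokine. Il5 was at 6.79, 44.8 and 30.5 CPM in fm_pos_Gata3flox and 501, 839 and 1358 CPM in fm_neg_Gata3flox libraries, a log2 fold change of -5.05 ± 0.79 (SE, edgeR adjusted p = 0.0346). Csf2 was at 23.4, 31.7 and 20.1 against 384, 462 and 491 CPM (-4.16 ± 0.44, edgeR adjusted p = 0.00679). Il1rl1 was at 3.61, 4.91 and 3.76 against 45.5, 102 and 81.5 CPM (-4.23 ± 0.57, edgeR adjusted p = 0.0179). Every reporter-positive library lay below every reporter-negative one for all 3 genes, which held for 9.12% of all genes tested, and 9.18% lay wholly above.

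Cd200r1, the CD200 receptor, was at 59.2, 69.2 and 68.1 CPM in fm_pos_Gata3flox and 233, 286 and 295 CPM in fm_neg_Gata3flox libraries (-2.06 ± 0.24, edgeR adjusted p = 0.00996). Raph1 was at 54.2, 42.1 and 61.0 against 119, 148 and 137 CPM (-1.37, edgeR adjusted p = 0.0234). Plscr1, a phospholipid scramblase with 132 CPM in Gata3-high and 39.7 CPM in Gata3-undetected skin cells, was at 157, 153 and 148 against 333, 350 and 315 CPM (-1.13, edgeR adjusted p = 0.0106). Ccl1, the ligand of CCR8, was at 14.8, 7.19 and 7.38 against 97.0, 142 and 158 CPM (-3.77, edgeR adjusted p = 0.00914). None of these groups overlapped, against the share of 9.12% given above. The other called genes of the Gata3-high set were Rnf128, an E3 ubiquitin ligase, and Otulinl, Cxcl2, Dusp10, Ipmk, Rbfa, Rcn1 and Socs2, the last 6 named after their values were seen. Il4 (-3.28) and Ccr8 (-1.64), which are on the ILC2 list but were not in the Gata3-high set, were called lower too.

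On the other side, Scart2 was at 462, 465 and 792 CPM in fm_pos_Gata3flox and 19.7, 16.7 and 7.19 CPM in fm_neg_Gata3flox libraries, a log2 fold change of 5.29 ± 0.79 (SE, edgeR adjusted p = 0.0283). Grap2 was at 527, 543 and 493 against 120, 147 and 157 CPM (1.87 ± 0.16, edgeR adjusted p = 0.00337). Tmem176b and Tmem176a were also called higher (2.07 and 2.36). These genes overlap head to head from 48840919 to 48841496 on chromosome 6, and unstranded reads within that stretch could not be told apart. Tcf7, level in skin cells, was called higher in fm_pos_Gata3flox (1.13, edgeR adjusted p = 0.0349). The ILC2 list had 6 of 27 genes called lower and 0 higher (median -2.15), and the ILC3 list 2 of 22 called higher and 0 lower (median 0.998).

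Not every gene of the single-cell contrast followed. Areg (-0.53, edgeR adjusted p = 0.655), Il13 (-2.65, edgeR adjusted p = 0.0848) and Klrg1 (-5.09, edgeR adjusted p = 0.112) were not called between the floxed groups. Ctsw, Cd3g, Fcer1g and Hspa1a had overlapping groups. Calls depended on single libraries: Grap2 and Tmem176b kept the call in each of 6 fits that left out 1 library, Il4 lost it in 1, Csf2 in 2, Ccl1 in 4, Il1rl1, Cd200r1 and Plscr1 in 5, and Il5, Scart2, Raph1 and Tcf7 in 6. The lane tag read from the deposited names was L1 or L2 in the fate-map libraries. With this lane as a covariate, Csf2, Ccl1, Il4, Grap2, Tmem176a and Tmem176b kept the call. Il5, Il1rl1, Cd200r1, Raph1, Plscr1, Ccr8, Scart2 and Tcf7 lost it. All reporter-positive libraries carried L2, and every L1 library of the fate-map groups was reporter-negative. Lane and reporter are thus partly confounded, and this fit cannot fully separate them.

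**Figure D4:**
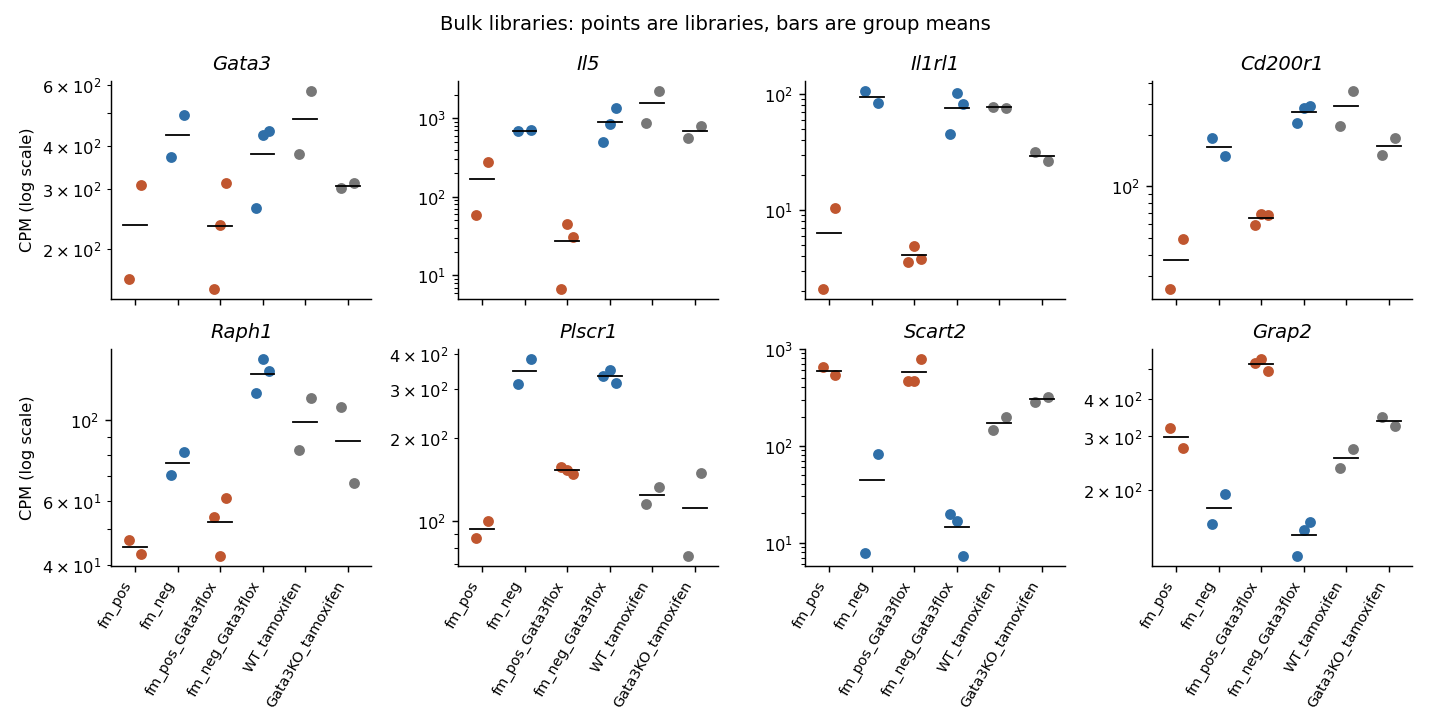
Level of 8 genes in CPM (log axis) in each of the 14 bulk libraries, by group; points are libraries and bars are group means. Il5, Il1rl1 and Cd200r1 are lower, and Scart2 higher, in both reporter-positive groups than in the reporter-negative groups, while Gata3 overlaps between the floxed groups.

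In intact mice the reporter split gave a comparable list. Between fm_pos and fm_neg, 478 genes were called (2.74%): 109 higher (0.624%) and 369 lower (2.11%) in fm_pos. Of 110 tested genes of the Gata3-high set, 16 were called lower and 0 higher, with a median log2 fold change of -0.83 and 87 negative (79.1%, against 48.7% of all genes). Of 83 genes of the Gata3-undetected set, 3 were called higher (Crmp1, Padi2 and Tesc) and 5 lower (Id3, Ifitm3, Prnp, Serpinb2 and Tyrobp), with a median of -0.02. The set of Gata3-undetected cells thus did not lean to fm_pos in intact mice. When fitted without the floxed libraries, this pair had 29 calls. Id3 and Ifitm3 kept the call there, and Il1rl1, Cd200r1, Plscr1, Csf2, Ccl1, Otulinl, Rnf128, Ccr6, Itgal, Ltb, Tcf7 and Tyrobp lost it. Il1rl1, Cd200r1, Plscr1, Csf2 and Ccl1 kept the call in each of 4 fits that left out 1 library.

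Il1rl1 was at 2.11 and 10.5 CPM in fm_pos and 106 and 83.8 CPM in fm_neg libraries (-3.96, edgeR adjusted p = 0.0188). Cd200r1 was at 25.4 and 49.2 against 190 and 150 CPM (-2.24, edgeR adjusted p = 0.0061), and Plscr1 at 87.5 and 100.4 against 311 and 385 CPM (-1.94, edgeR adjusted p = 0.00106). Il5 was at 58.9 and 276 against 683 and 709 CPM and was not called (-2.11 ± 0.85, edgeR adjusted p = 0.215). Scart2 was at 657 and 534 against 7.76 and 81.7 CPM and was not called either (3.69 ± 0.89, edgeR adjusted p = 0.0629). The groups did not overlap for any of these 5 genes, nor did they for 35.2% of all genes tested. Gata3 was at 164 and 308 CPM in fm_pos and 372 and 491 CPM in fm_neg libraries, not called (-0.92, edgeR adjusted p = 0.230).

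Ccl1, Cd200r1, Csf2, Il1rl1, Otulinl, Plscr1 and Rnf128 were called lower in reporter-positive cells of both genotypes. These 7 genes are 46.7% of the 15 Gata3-high genes called in floxed mice and 43.8% of the 16 called in intact mice. The ILC2 list had 5 of 27 genes called lower and 0 higher in fm_pos (median -1.02), and the ILC3 list 5 of 22 called higher and 0 lower (median 0.90). Ccr6, Itgal, Ltb and Tcf7 were also called higher in fm_pos. Of 4 fits that left out 1 library, Ltb lost the call in 3, and Ccr6, Itgal and Tcf7 in 2 each. With lane as a covariate, Ccr6 kept the call and Itgal, Ltb and Tcf7 lost it. Itgal, the integrin αL, is a gene of the homing list, and Ltb, lymphotoxin beta, of the ILC3 and type 17 list. The reporter effect itself differed between floxed and intact mice for 176 of 17456 genes (1.01%) by edgeR's interaction test.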

How the data were processed

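Bulk RNA-seq of 14 skin ILC libraries and single-cell RNA-seq of 3 libraries were used. The authors aligned with HISAT2 2.1.0 and counted with featureCounts of Subread, per the submitters' processing notes, and deposited raw counts per gene (54446 genes, mm10, joined by gene ID; 54409 had a symbol) and per gene and cell. The single-cell chemistry and cell calling are not given in the sources used here.

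Counts were summed over the cells of each group, scaled to CPM, and compared with exact conditional intervals (95%, scipy 1.17.1), which cover counting error only. Fold limits were 2-fold with at least 100 summed counts, and 10 counts in dorsal cells. Doublet calls (scrublet in scanpy 1.11.5) marked 3 of 4444 cells (0.0675%), too few for the caller to have worked, and none was a member. Bulk counts were fitted with edgeR 4.0.16 (filterByExpr, TMM, quasi-likelihood test, Benjamini-Hochberg) in R 4.3.3, with all 10 fate-map libraries in 1 fit and the 4 tamoxifen libraries in another, and with DESeq2 1.42.0 as an alternative. Bulk CPM are TMM-scaled, with summed CPM of marker lists as deposited totals. The scripts were tested on simulated data.

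From each gene list the 3 or 4 members with the largest skin ratios were named, with the 10 highest and 10 lowest ratios over all genes and fixed readout genes. Named outside that rule, after their values were seen, are Calca, Ccl1, Ccr8, Dgat2, Grap2, Il2ra, Lck, Otulinl, Plscr1, Ptpn13, Rnf128, Scart2, Sdc1 and Tmem176b. Members and lists were chosen with earlier results of these data known. The gene that drives the fate-map reporter is not reported here.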

Additional observations from a re-analysis of the deposited data

Results flagged for a closer look

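The reporter difference was not the same in floxed and intact mice for 7 of 95 named genes tested, by the interaction term of the edgeR fit over the 10 fate-map libraries (Benjamini-Hochberg adjusted over all genes), which called 176 of all 17456 genes (1.01%). Ccr8, a chemokine receptor, differed by -1.79 on the log2 scale (adjusted p = 0.0333), with a reporter effect of -1.64 in floxed and 0.15 in intact mice. Pdcd1, the inhibitory receptor PD-1, differed by 2.51 (adjusted p = 0.0461; 1.89 and -0.63). Sfn, a keratinocyte 14-3-3 protein, differed by 2.42 (adjusted p = 0.00606; 1.01 and -1.41). Id3 differed by 4.09 (adjusted p = 0.00896; -0.34 and -4.43), Ifitm3, an interferon-induced membrane protein, by 4.90 (adjusted p = 0.00146; -0.64 and -5.54), and Tyrobp, a signalling adaptor of myeloid and natural killer cells, by 4.03 (adjusted p = 0.0427; -0.98 and -5.01). Cd200r4 differed by 10.53 (adjusted p = 0.0022), but its fm_pos libraries were both at 0 counts, so the fitted size depends on the prior count and is no bound. Fibroblast, keratinocyte, endothelial, B cell and mast cell genes were higher in fm_neg than in fm_pos libraries of intact mice, and their part in these differences was not tested.

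Ifitm3 had a log2 ratio of -3.12 between Gata3-high and Gata3-undetected skin cells, but 0.50 and 0.68 in the dorsal day 0 and day 10 libraries. The difference between libraries was not tested, and the dorsal values rest on 13 against 5 and 11 against 4 counts.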

How the results depend on the processing

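Within skin, 111 and 86 genes were past 2-fold higher in Gata3-high and Gata3-undetected cells. The counts were 47 and 45 when cells were thinned to 2000 counts and split at 0 and 3 Gata3 counts, 173 and 232 with at least 50 summed counts, and 68 and 28 with at least 200. Of the genes higher in Gata3-undetected skin cells, 47 of 61 measured (77.0%, against 51.2% of all genes) kept their sign at dorsal day 10 with cells of at least 1000 counts. In cells of 3000 to 5000 counts the log2 ratio of Id3 was 1.9996 and that of Serpinb2 0.23, against negative values in all members. Removing cells with myeloid or B cell counts was an alternative chosen after seeing the data, and it lowers those lists by design. It gave 0.0737 for Cybb, 0.18 for H2-Ab1, 0.0121 for H2-Eb1, 0.0795 for Ighm and 0.16 for Igkc. The medians were 0.0913 for MHC class II and 0.12 for B cell genes. Leaving out the top cell of each gene, also chosen afterwards, gave 0.0439 for Serpinb2. Of 950 comparisons of named genes with an alternative in single cells, 826 moved by less than their counting interval. In 8, a gene past 2-fold in all members changed sign. Genes nearer to a ratio of 1 also changed sign in some alternatives. Sfn had a log2 ratio of -0.13 in all members and up to 0.88, and Tbx21, Il22 and Tcf7 changed sign too.

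Between Gata3KO and WT, DESeq2 called 230 genes and edgeR without a filter 6, against 0. Between the floxed groups (63 genes called), DESeq2 called 533, no filter 321, the 6 libraries alone 233 and lane as a covariate 10, and leaving out 1 library gave 2 to 27. Between the intact groups (478), these were 2620, 1324, 29 and 250, and leaving out 1 library gave 514 to 877. The cause of these changes was not tested. With the replicate number as a block, edgeR called 0, 31 and 126 genes in the 3 comparisons. Deviations of same-numbered libraries from their group means were weakly correlated across genes. The values were r = 0.01 for the tamoxifen pair, 0.10, 0.02 and 0.04 for the floxed pairs and -0.0044 for the intact pair. With 2 or 3 libraries a group, they cannot show whether the numbers pair the libraries. Groups of 2 or 3 libraries and 30 to 87 dorsal cells a group limit the precision.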
